A study of Homo sapiens with 38 samples.

Results

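The RNA of the nucleus was compared with that of the cytoplasm in HCT116 cells without functional AGO2. HCT116 is an established human line from a colorectal carcinoma. Libraries were chosen by title, as 3 nuclear (Nuc-A2) and 3 cytoplasmic (Cyto-A2) fractions of the AGO2 knockout cells at passages 8, 9 and 10, which gave 6 of the 38 samples of the series. The comparison groups were the 6 wild-type HCT116 libraries (Nuc-WT and Cyto-WT, passages 27, 28 and 29) and the 6 AGO1 knockout libraries (passages 6, 7 and 8). AGO1/2 (passages 9, 10 and 11) and AGO1/2/3 (passages 11, 12 and 14) knockout libraries were used in 2 places only. These were the retained-intron shares of nuclei and an alternative fit of all 30 libraries. Each passage gave 1 nuclear and 1 cytoplasmic library, called a culture here. The AGO2-/- cells were 1 edited line at a lower passage number than the wild-type cells, so genotype, line and passage cannot be told apart, and p-values measure only the spread between successive cultures of each line.

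Messenger RNAs are made and spliced in the nucleus and exported to the cytoplasm, whereas some long noncoding RNAs (lncRNAs) stay in the nucleus, such as NEAT1, the scaffold of paraspeckles, and MALAT1, a component of nuclear speckles. Messages of secreted and membrane proteins are translated on the endoplasmic reticulum (ER), a membrane that continues into the outer nuclear envelope. AGO2 is an Argonaute protein that holds a microRNA (miRNA), pairs its seed with a target RNA and can cut a fully paired target. It acts in the cytoplasm and is also found in nuclei.

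The mature sequences of 4 abundant miRNAs of epithelial cells are shown because the target lists below are grouped by them. They were taken from RefSeq (GRCh38.p14), and the capitals mark the seed, bases 2 to 8 from the 5′ end. The seeds of miR-17-5p and miR-20a-5p were identical.
hsa-let-7a-5p: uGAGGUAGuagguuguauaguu
hsa-miR-17-5p: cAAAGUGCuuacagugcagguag
hsa-miR-20a-5p: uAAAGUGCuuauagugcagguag
hsa-miR-21-5p: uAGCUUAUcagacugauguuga

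The nuclear AGO2 knockout libraries held 35530955 to 36880820 estimated reads and the cytoplasmic ones 66451720 to 76115673. Nuclear wild-type libraries held 20431557 to 26536692 and cytoplasmic ones 39476205 to 43281746. Both wild-type libraries of passage 29 stood apart from the other wild-type libraries of their fraction: their log2 levels deviated from the other cultures with an SD of 0.362 (cytoplasm) and 0.338 (nucleus) over 9705 genes, against 0.190 to 0.221 for the other wild-type libraries and 0.0840 to 0.140 for the AGO2 knockout libraries. Comparisons with wild type are therefore given with and without that culture. Of the epithelial markers, EPCAM (212 CPM in the nucleus, 319 CPM in the cytoplasm), KRT8, KRT18, KRT19, CDH1, CLDN4 and CDX2 were detected in the AGO2 knockout cells, while VIL1 and LGALS4 stayed below the filter on low counts. The fibroblast markers COL1A2, COL3A1, DCN, LUM and PDGFRA and the leukocyte markers PTPRC, CD3E, LYZ and CD14 were below the filter, and COL1A1 and CD68 passed it.

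Levels are given in CPM, the read count of a gene divided by the scaled size of its library, and the nuclear to cytoplasmic ratio is the log2 of nuclear over cytoplasmic CPM from an edgeR fit. The ratio is relative to the other RNAs of the 2 libraries and says nothing of amounts per cell. In bulk libraries, fewer cells that hold an RNA and less of it per cell cannot be told apart. The targeted gene, AGO2, was read at 340, 308 and 323 CPM in the nuclear and 319, 307 and 306 CPM in the cytoplasmic knockout libraries, against 485, 451 and 412 CPM and 510, 493 and 421 CPM in wild type. Its transcript was thus still present, lower in all 6 knockout libraries than in any wild-type library, and evenly spread over the fractions (log2 ratio 0.06 ± 0.09 SE, edgeR adjusted p = 0.547). AGO2 read counts alone do not show whether the gene was disrupted.

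Both fraction markers were on the nuclear side in every AGO2 knockout culture. NEAT1 (chr11:65422774-65445540, plus strand, hg38) had 518, 631 and 578 CPM in the nuclear libraries of passages 8, 9 and 10 and 65.5, 85.8 and 64.1 CPM in the cytoplasmic ones, a log2 ratio of 3.003 ± 0.26 (SE, edgeR adjusted p = 4.48e-07). MALAT1 (chr11:65497640-65508073, plus strand) had 9911, 10193 and 10696 CPM in the nucleus and 1470, 1773 and 1416 CPM in the cytoplasm, a log2 ratio of 2.72 ± 0.18 (edgeR adjusted p = 5.73e-08). The nuclear and cytoplasmic libraries did not overlap for either RNA, nor did they for 81.1% of all genes tested. In wild type the log2 ratios were 3.94 and 3.87.

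Across the transcriptome, 13601 of 18685 genes tested (72.8%) differed between the fractions of the AGO2 knockout cells at an adjusted p of at most 0.05 in edgeR, 7061 (37.8%) toward the nucleus and 6540 (35%) toward the cytoplasm. In the wild-type cells 76.0% of the genes were called, 7365 (39.4%) toward the nucleus and 6836 (36.6%) toward the cytoplasm. The split depended on scaling. With library totals in place of edgeR's trimmed scaling the median log2 ratio over all genes moved from 0.03 to 0.49, and 10203 genes were called nuclear against 3443 cytoplasmic. On log2(TPM + 1) the median was 0.30 and the calls were 10071 against 2640. Ratios near 0 are therefore read only relative to the other genes. Calls within the gene lists below are likewise set beside the 37.8% nuclear and 35% cytoplasmic of all genes.

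The noncoding RNAs of the nucleus led the nuclear side. Of 16 lncRNAs listed as nuclear, 15 were tested, 13 were called nuclear and none cytoplasmic, with a median log2 ratio of 2.72 beside 0.03 over all genes. MIR17HG, the host transcript of the miR-17 to miR-92a cluster, was read at 37.9, 36.7 and 36.7 CPM in the nucleus and at 0.451, 0.687 and 0.395 CPM in the cytoplasm (log2 ratio 6.17 ± 0.24). KCNQ1OT1, an imprinted antisense transcript, had 184, 188 and 163 CPM against 10.4, 8.72 and 7.84 CPM (4.31 ± 0.27). LINC-PINT had 174, 160 and 155 CPM against 10.2, 10.1 and 8.48 CPM (4.09 ± 0.19). All 3 were far apart between the fractions. PVT1 (log2 ratio 0.15) and MIR31HG (0.38) were the members not called. The transcripts chosen by the annotation as canonical for MIR17HG, KCNQ1OT1, LINC-PINT and PVT1 had no value used here, so these levels rest on their other transcripts.

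By gene class, all 121 small nucleolar RNA genes tested were called nuclear, with a median log2 ratio of 5.71. Of 3118 lncRNA genes, 2212 were nuclear and 212 cytoplasmic (median 1.75), and of 13486 protein-coding genes 3435 were nuclear and 5975 cytoplasmic (median -0.21). Processed pseudogenes had a median of 2.09. Pseudogenes share reads with their parent genes, and their values are uncertain.

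Structural RNAs fell on both sides. Of 14 tested, 9 were nuclear and 4 cytoplasmic (37.8% and 35% of all genes). The small Cajal body RNAs SCARNA2 and SCARNA10 had log2 ratios of 5.85 ± 0.19 and 5.89 ± 0.19, and RMRP, the RNA of RNase MRP, was read at 20635, 20831 and 24460 CPM in the nucleus against 2389, 2482 and 2440 CPM in the cytoplasm (3.17 ± 0.14). The 4 on the cytoplasmic side were RPPH1, RN7SK, RN7SL1 and RN7SL2. RPPH1, the RNA of RNase P, which processes tRNAs in the nucleus, was read at 603, 646 and 653 CPM in the nucleus and 8310, 7438 and 7471 CPM in the cytoplasm (-3.61 ± 0.09). RN7SK, a nuclear regulator of transcription elongation, had 7531, 8557 and 9759 CPM against 23945, 24364 and 24622 CPM (-1.50 ± 0.10). Those values go against the nuclear roles of both RNAs, and wild type had the same side for each (-3.89 and -1.06). RN7SL1 and RN7SL2, the RNA of the signal recognition particle, had ratios of -1.31 and -1.55.

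Mitochondrial RNA marked the cytoplasmic fraction. Of 15 mitochondrially encoded genes, 14 were called cytoplasmic, with a median log2 ratio of -5.37. MT-CO3, a cytochrome oxidase subunit, was read at 172, 174 and 174 CPM in the nucleus and 18159, 19954 and 18609 CPM in the cytoplasm (-6.77 ± 0.12). The exception was MT-ND6, encoded on the other strand than the other respiratory genes, with 809, 767 and 629 CPM in the nucleus against 704, 604 and 600 CPM in the cytoplasm (0.21, not called). Mitochondrial genes took 0.539% ± 0.0615 (SD, n = 3) of the TPM total in the nucleus and 8.68% ± 0.494 in the cytoplasm, a gap far beyond the spread between cultures (exact two-sided permutation test, p = 0.1, the smallest that 3 against 3 allows).

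Short housekeeping messages were cytoplasmic. Of 79 cytosolic ribosomal protein genes, 75 were called cytoplasmic (median -1.50), as were 56 of 60 nuclear-encoded respiratory chain genes (median -1.26) and 32 of 35 replication-dependent histone genes tested (median -1.22). GAPDH, a glycolytic enzyme, had 2284, 2332 and 2165 CPM in the nucleus and 4287, 3859 and 3952 CPM in the cytoplasm (-0.84 ± 0.08). EEF1A1, a translation elongation factor, had a ratio of -1.14 ± 0.10. Among those called nuclear were RPS7 and RPS27 (1.37 and 1.34), and for both the canonical transcript had no value used here. All 71 ribosomal protein genes that kept their canonical transcript were cytoplasmic. Over all coding genes, 41.8% of the 689 without that transcript were called nuclear, against 24.6% of the 12797 with it.

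Coding genes known to keep introns in the nucleus were on its side. Of 28 genes listed for detained introns, 21 were nuclear and 1 cytoplasmic (SRSF6), with a median of 0.74. OGT, the enzyme that adds O-GlcNAc to proteins, was read at 408, 403 and 416 CPM in the nucleus and 80.0, 78.5 and 83.8 CPM in the cytoplasm (2.34 ± 0.13). The kinase CLK1, which phosphorylates splicing factors, had 77.3, 78.4 and 88.7 CPM against 21.7, 23.0 and 24.7 CPM (1.82 ± 0.13). NKTR and PNISR had ratios of 2.24 and 2.04. When only transcripts annotated as protein-coding or lncRNA were counted, the list's median was 0.00 and the ratio of CLK1 was -0.01, so the nuclear side of CLK1 came from its other transcripts. Retained-intron transcripts of protein-coding genes took 12.2% ± 0.189 of those genes' TPM in the nucleus and 3.22% ± 0.117 in the cytoplasm (n = 3, exact permutation p = 0.1). Their protein-coding transcripts took 78.9% ± 0.302 and 91.3% ± 0.331.

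**Figure D1:**
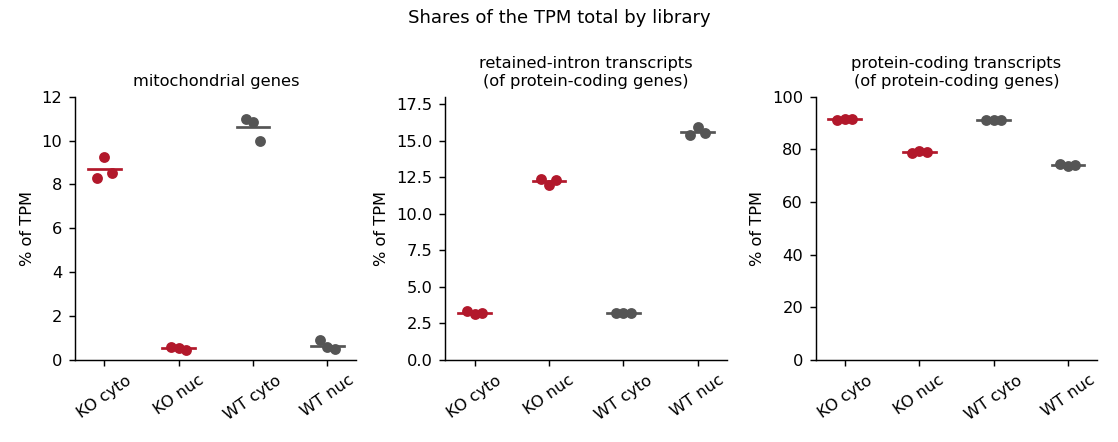
Share of the TPM total (left) and of the TPM of protein-coding genes (middle and right), in percent, for each cytoplasmic (cyto) and nuclear (nuc) library of AGO2 knockout (KO, red) and wild type (WT, grey), with lines at the means of 3 libraries. Retained-intron transcripts were near 12.2% in the knockout nuclei and 15.6% in the wild-type nuclei, while both cytoplasms were near 3.2%.

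Messages of ER proteins were mostly cytoplasmic. Of 27 ER genes, 19 were called cytoplasmic and 4 nuclear (35% and 37.8% of all genes). Their median was -0.42, which became 0.04 with library totals and 0.18 on log2(TPM + 1). The translocon subunits SEC61G and SEC61B had the lowest ratios, with SEC61B at 25.2, 28.4 and 25.6 CPM in the nucleus against 63.8, 67.7 and 62.4 CPM in the cytoplasm (-1.29 ± 0.10). The 4 nuclear members were UGGT1, a glycoprotein folding sensor (0.56 ± 0.06), SPCS1 (0.53), HYOU1 (0.28) and HSP90B1 (0.24). Of 29 secreted and matrix genes, 13 were nuclear and 8 cytoplasmic (37.8% and 35% of all genes). The laminin chains LAMA5 (192, 191 and 219 CPM against 56.3, 48.9 and 57.9 CPM, log2 ratio 1.88) and LAMB2 (1.49) were among the nuclear ones. Of 30 membrane receptor and adhesion genes, 10 were nuclear and 5 cytoplasmic (37.8% and 35% of all genes).

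Mature length went with localization over the coding genes as a whole. The median log2 ratio was -1.19 for the 826 genes of at most 1000 bases, of which 10.2% were nuclear, and 0.33 for the 1167 genes over 8000 bases, of which 51.2% were nuclear. Genes with over 21 exons had a median of 0.42, and 56.1% of them were nuclear. The wild-type medians for the same 3 groups were -1.34, 0.40 and 0.41. Genes of 4 to 6 exons had a median of -0.58 and single-exon genes of -0.14, so the relation to exon number was not monotonic.

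**Figure D2:**
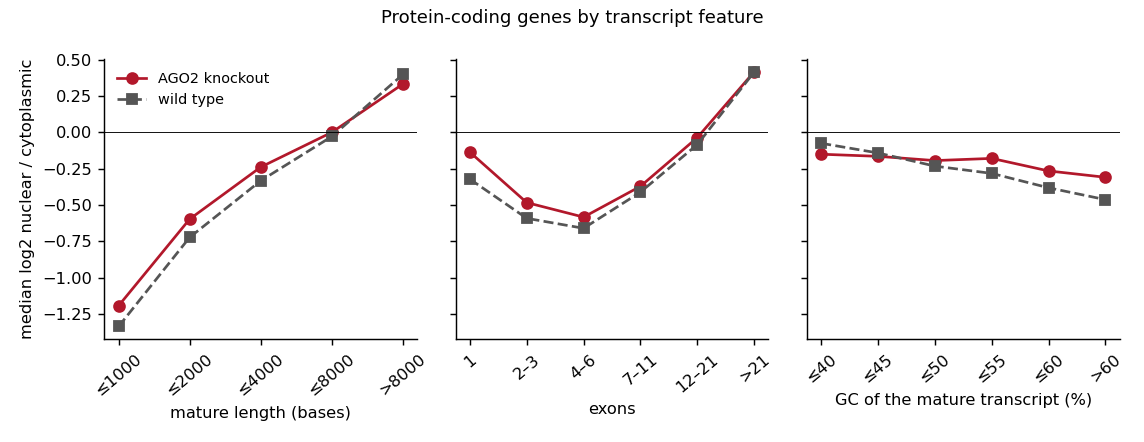
Median log2 nuclear to cytoplasmic ratio (y axis) of protein-coding genes grouped by mature transcript length in bases, number of exons and GC percent (x axes), in AGO2 knockout (red circles) and wild type (grey squares). Medians went from -1.19 at up to 1000 bases to 0.33 above 8000 bases in the knockout, and the lines of the 2 genotypes cross along the GC axis.

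Some lists held members against their name. Of 12 lncRNAs listed as cytoplasmic, 5 were called nuclear (GAS5, SNHG1, SNHG5, SNHG8 and EPB41L4A-AS1) and 5 cytoplasmic (37.8% and 35% of all genes). For 10 of the 12 the canonical transcript had no value used here, and all 5 nuclear calls were among these 10. Of the 2 that kept it, 0 were nuclear and 1 was cytoplasmic, so the nuclear calls rest on other transcripts. GAS5, a host of small nucleolar RNAs, had 319, 314 and 320 CPM in the nucleus and 79.3, 88.0 and 94.0 CPM in the cytoplasm (1.87 ± 0.22), but -0.13 when only lncRNA and protein-coding transcripts were counted. SNHG16 was cytoplasmic (251, 245 and 261 against 724, 738 and 691 CPM, -1.51 ± 0.07). Among export and retention factors, 12 of 21 were nuclear and 6 cytoplasmic (37.8% and 35% of all genes). TPR, the nuclear basket protein, had 899, 885 and 829 CPM against 119, 120 and 147 CPM (2.76 ± 0.12).

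The remaining Argonaute genes were moderately placed in the AGO2 knockout cells. AGO1 had 154, 146 and 148 CPM in the nucleus and 215, 216 and 211 CPM in the cytoplasm (-0.52 ± 0.08, edgeR adjusted p = 0.000112). AGO3 was on the nuclear side (139, 130 and 144 against 103, 99.8 and 104 CPM, 0.43 ± 0.10), and AGO4 was low in both fractions and cytoplasmic (-0.38 ± 0.14). Of 18 genes of the RNAi machinery, 7 were nuclear and 5 cytoplasmic, near the shares of all genes (37.8% and 35%). The terminal uridylyltransferases TUT7 and TUT4, which modify let-7 precursors, were nuclear (0.76 and 0.52).

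Targets of the miRNAs shown above are given beside the 37.8% nuclear and 35% cytoplasmic of all genes. Of 20 let-7 targets 8 were nuclear and 7 cytoplasmic, of 19 miR-17 family targets 3 and 10, and of 15 miR-21 targets 3 and 4, with medians of -0.11, -0.24 and -0.19. NRAS, a let-7 target, had 61.6, 61.4 and 61.9 CPM in the nucleus and 170, 195 and 162 CPM in the cytoplasm (-1.51 ± 0.09), and HMGA1 had a ratio of -1.48. With library totals all 3 medians were above 0 (0.36, 0.22 and 0.28), as for the median of all genes.

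The ratios of the 2 genotypes were compared next, to describe how they differed between AGO2 knockout and wild-type cells. The paper states that its harsh lysis broke some nuclei, so a little NEAT1 and MALAT1 could reach the cytoplasmic fraction. It also states that ER had to be removed from the nuclei. It assessed purity by microscopy of an ER marker and by western blot, which covered the knockout lines. NEAT1 and MALAT1 were enriched in its nuclear samples and GAPDH in its cytoplasm. It reports that the quality of all samples was checked before RNA-seq. Whether purity differed between genotypes was not tested here, so a ratio difference is not by itself a change of localization. The ratio differed for 340 genes (1.82%), of which 39 (0.209%) were higher in the AGO2 knockout, meaning more nuclear than in wild type, and 301 (1.61%) were lower, by the interaction term of the edgeR fit at an adjusted p of at most 0.05. At an unadjusted p under 0.05 there were 2982 genes. The count depended on how the cultures were treated. With the culture as a block, 2356 genes were called (12.6%, 1062 higher and 1294 lower), and without wild-type culture 29, 1529 were called (8.05%, 610 higher and 919 lower). The direction split moved with scaling too, to 93 higher and 172 lower when mitochondrial and small RNA genes were left out of the scaling and to 64 and 132 with length-scaled counts. Without any 1 of the nuclear knockout libraries 44 to 57 genes were called, without nuclear wild-type culture 28 there were 41, and without nuclear wild-type culture 29 there were 555.

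Among the 301 genes that were lower, the nuclear level alone differed between genotypes for 202, the cytoplasmic level alone for 38 and both for 61. Their median difference between knockout and wild type was -0.60 (log2) in the nucleus and 0.25 in the cytoplasm. By class, 196 were coding genes and 68 lncRNAs. In wild type 292 of them were on the nuclear side. Of the 39 genes that were higher, 19 differed in the nuclear level alone, 10 in the cytoplasmic alone and 10 in both, with medians of 0.50 and -0.04, and 31 were coding and 0 were lncRNAs. With the culture as a block, 214 of 3118 lncRNA genes (6.86%) and 977 of 13486 coding genes (7.24%) were lower, near the 6.93% of all genes, and 7 (0.225%) and 1036 (7.68%) were higher, beside 5.68% of all genes.

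The range of ratios was narrower in the knockout cells. Over 8508 genes with at least 10 CPM in every group, the SD of the log2 ratio was 0.760 in the knockout and 0.849 in wild type, and by culture it was 0.736 to 0.774 against 0.841 to 0.865, without overlap. The ratios of the genotypes correlated across these genes with r = 0.968 (a description, since genes are not independent replicates). To avoid sorting genes by either genotype compared, they were grouped by their ratio in the AGO1 knockout libraries. Of 1342 genes with an AGO1 knockout ratio from -2 to -1, 16.8% were lower in the AGO2 knockout than in wild type (median difference 0.14), and of 336 genes with a ratio from 1 to 2, 77.7% were lower (median difference -0.24). The shares were 30.4% of 4438 genes from -1 to 0 and 56.0% of 2267 genes from 0 to 1. In the outer groups they were 25.8% of 31 genes below -2 and 66.0% of 94 genes above 2 (median difference -0.19), so the trend did not continue there. Over all 18685 genes tested, which include genes of lower CPM, 50.0% were lower.

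**Figure D3:**
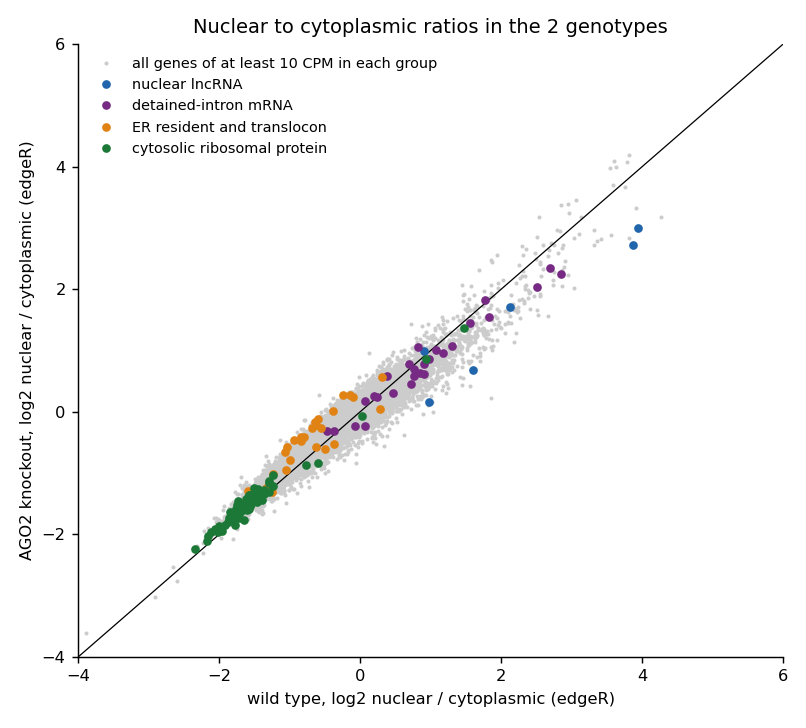
Log2 nuclear to cytoplasmic ratio in wild type (x axis) against AGO2 knockout (y axis) for 8508 genes of at least 10 CPM in each group (14 lie outside the axes), with 4 gene lists in colour and the line of equal ratios. Nuclear lncRNAs such as MALAT1 (3.87 and 2.72) lie below the line, and most ER genes lie above it.

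Several nuclear lncRNAs had lower ratios in the AGO2 knockout. Of 15 tested, 4 were called lower and 0 higher, and 9 were called lower both with the culture as a block and without wild-type culture 29 (background 1.61%, 6.93% and 4.84% of all genes). In wild type all 15 were called nuclear, and 292 of the 301 lower genes were on the nuclear side. The share of lower genes among nuclear genes alone was not counted. The median difference of the 15 lncRNAs was -0.83, and it stayed between -0.43 and -0.90 under each scaling and fit run. For MALAT1 the knockout cultures had log2 ratios of 2.75, 2.52 and 2.92 and the wild-type cultures 3.43, 3.60 and 4.61, without overlap, as for 36.8% of all genes tested. The difference was -1.15 ± 0.24 (SE, edgeR adjusted p = 0.0391, and 0.0130 with the block), and -0.79 without wild-type culture 29. Wild-type MALAT1 levels were 12068, 13510 and 17817 CPM in the nucleus and 1120, 1113 and 731 CPM in the cytoplasm, so all 3 knockout nuclei were below and all 3 knockout cytoplasms above them.

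NEAT1 had a lower ratio in each knockout culture too, but did not pass the threshold without the block. Its culture ratios were 2.97, 2.87 and 3.16 in the knockout and 3.73, 3.60 and 4.26 in wild type. The difference was -0.94 ± 0.34 (edgeR adjusted p = 0.191), with an adjusted p of 0.00528 with the block and 0.0233 without wild-type culture 29. The nuclear level of wild-type culture 29 was 1038 CPM, against 519 and 522 CPM in the other wild-type cultures and 518 to 631 CPM in the knockout, so the nuclear levels of NEAT1 overlapped, while its cytoplasmic levels were higher in every knockout library (64.1 to 85.8 CPM) than in any wild-type library (38.8 to 53.7 CPM).

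FTX and JPX, lncRNAs of the X-inactivation centre, and PVT1, the neighbour of MYC, were also called. FTX (chrX:73940435-74293574, minus strand) had 76.1, 74.4 and 72.0 CPM in knockout nuclei and 166, 191 and 167 CPM in wild-type nuclei, with 8.52 to 9.71 and 9.11 to 12.8 CPM in the cytoplasms (difference -0.89 ± 0.16, edgeR adjusted p = 0.0184). JPX (chrX:73944182-74070408, plus strand), which overlaps FTX on the other strand, had 30.4, 28.1 and 28.2 against 49.3, 54.2 and 45.9 CPM in the nuclei (-0.91 ± 0.11, adjusted p = 0.00350). For both RNAs the nuclear levels of the genotypes did not overlap. PVT1 had a ratio of 0.15 in the knockout and 0.98 in wild type (-0.83 ± 0.13, adjusted p = 0.0118). Of the 12 lncRNAs listed as cytoplasmic, none was called in edgeR (0 at an unadjusted p under 0.05 and 0 by DESeq2), and 5 were lower without culture 29 (median difference -0.01, and -0.23 without that culture). LINC-PINT (-1.05, adjusted p = 0.0559) and KCNQ1OT1 (-0.84, 0.260) were called with the block and also without culture 29. Over all 3118 lncRNA genes, 68 (2.18%) were lower and 0 higher, near the 1.61% of all genes that were lower, and the median ratio was 1.75 in the knockout and 2.12 in wild type.

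**Figure D4:**
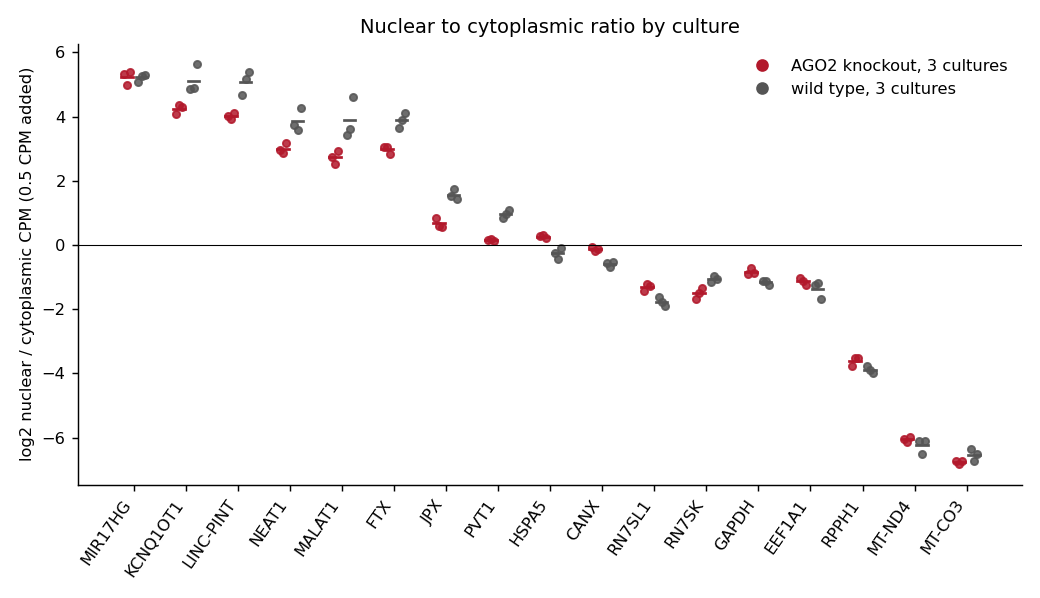
Log2 nuclear over cytoplasmic CPM (0.5 CPM added) of 17 RNAs in each of 3 AGO2 knockout (red) and 3 wild-type (grey) cultures, with lines at the means. The knockout cultures of MALAT1 (2.52 to 2.92) lie below the wild-type cultures (3.43 to 4.61), whereas the HSPA5 and CANX points of the knockout lie above those of wild type.

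Among messages of the secretory pathway, calls were on the higher side. Of 27 ER genes, 5 were called higher and 0 lower (background 0.209% higher), 17 with the block (5.68%) and 16 without wild-type culture 29 (3.21%). The median difference was 0.34 and lay between 0.31 and 0.42 under every scaling and fit run. CANX, the ER chaperone calnexin, had 1265, 1203 and 1223 CPM in knockout nuclei against 823, 779 and 785 CPM in wild-type nuclei, while its cytoplasmic levels were 1308, 1357 and 1336 against 1216, 1241 and 1144 CPM. Its ratio was -0.12 in the knockout and -0.59 in wild type (difference 0.48 ± 0.09, edgeR adjusted p = 0.0186). PDIA3, a disulfide isomerase, had 441, 421 and 409 against 297, 287 and 306 CPM in the nuclei (0.47 ± 0.10, adjusted p = 0.0399). The oligosaccharyltransferase subunits RPN1, DDOST and STT3A were the other 3 called (0.45, 0.41 and 0.40). For these 5 genes the nuclear levels of the knockout lay above those of wild type in every library. The translocon subunit SEC61G (-0.06), the translocon-associated SSR3 (0.10) and the signal peptidase subunit SPCS2 (0.10) were not called.

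Messages of plasma membrane and secreted proteins had fewer calls. Of 30 membrane receptor and adhesion genes 2 were called higher, BSG and EPCAM (0.209% of all genes), and 19 with the block (5.68%) and 13 without culture 29 (3.21%), at a median difference of 0.32. BSG, a membrane immunoglobulin that accompanies lactate transporters, had 327, 313 and 321 CPM in knockout nuclei against 205, 187 and 223 CPM in wild-type nuclei, with cytoplasmic levels that overlapped (0.62 ± 0.11, edgeR adjusted p = 0.0158). EPCAM, an epithelial adhesion protein, had 217, 209 and 209 against 132, 131 and 132 CPM in the nuclei (0.46 ± 0.09, adjusted p = 0.0324). None of 29 secreted and matrix genes was called in edgeR without the block, with 5 at an unadjusted p under 0.05 and 4 called by DESeq2, at a median difference of 0.32. With the block 15 were called higher (5.68% of all genes), and without culture 29, 11 (3.21%). AGRN, a basement membrane proteoglycan, had a difference of 0.72 (adjusted p = 0.115, and 0.00119 with the block). No member of the ER, membrane and secreted lists was called lower with the block or without culture 29.

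**Figure D5:**
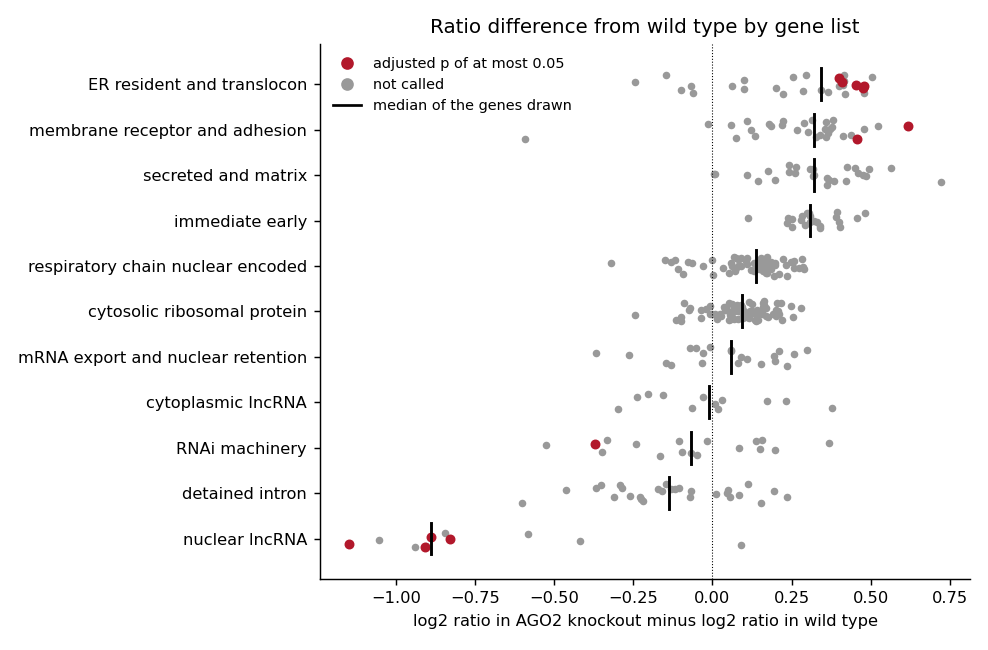
Difference of the log2 nuclear to cytoplasmic ratio, AGO2 knockout minus wild type (x axis), for the members of 11 gene lists with a mean of at least 0.5 CPM in each group. Red points passed an adjusted p of 0.05 in edgeR, and bars are medians. Nuclear lncRNAs lie on the negative side apart from TUG1, and the ER, membrane and secreted lists lie mostly on the positive side.

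Ribosomal protein, respiratory chain and mitochondrial genes differed less. None of their 79, 60 and 15 genes was called in edgeR without the block, and their median differences were 0.09, 0.14 and 0.17. At an unadjusted p under 0.05 there were 8, 6 and 1, and DESeq2 called 5, 1 and 0. With the block 2, 1 and 1 of them were called higher (5.68% of all genes). Without wild-type culture 29, 6 respiratory chain genes were higher (3.21% of all genes), 1 ribosomal protein gene was higher and 1 lower, and 0 mitochondrial genes were called. The 22 immediate early genes had a median difference of 0.31 and none called in edgeR without the block (3 at an unadjusted p under 0.05 and 3 by DESeq2), with 12 called higher with the block (5.68% of all genes) and 2 without culture 29 (3.21%). Among structural RNAs RNU4-1, the U4 spliceosomal RNA, was called higher (52.3, 52.0 and 55.6 against 75.01, 71.3 and 87.4 CPM in the nuclei and 3.41, 3.57 and 3.82 against 7.22, 10.7 and 8.98 CPM in the cytoplasms, difference 0.77 ± 0.17, adjusted p = 0.0478), and its copies may share reads. Lists not chosen for the secretory pathway were higher as well, but the epithelial one shares members with it. Its only call in edgeR without the block was EPCAM, already counted among the membrane genes. The 8 reference mRNAs had a median difference of 0.27, with ENO1 called (0.42) and 4 called higher both with the block and without culture 29, and the 7 epithelial markers one of 0.37, with 7 of 7 positive, 5 called with the block and 4 without culture 29.

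Retained-intron transcripts took a smaller share in the knockout nuclei than in wild-type nuclei, 12.2% ± 0.189 against 15.6% ± 0.282 of the TPM of protein-coding genes (n = 3, exact permutation p = 0.1, no overlap), and the cytoplasmic shares were 3.22% ± 0.117 and 3.21% ± 0.018. The nuclei of the other knockout lines were also below wild type, at 13.03% to 13.46% in AGO1, 8.027% to 8.762% in AGO1/2 and 9.059% to 10.36% in AGO1/2/3 knockout cells, so the smaller share was not particular to the AGO2 knockout. Of the 28 detained-intron genes none was called in edgeR without the block (4 at an unadjusted p under 0.05 and 2 by DESeq2), 6 were lower with it (6.93% of all genes) and 2 without culture 29 (4.84%). The median difference was -0.14, which was -0.01 without culture 29 and 0.05 when only protein-coding and lncRNA transcripts were counted. NKTR had the largest difference of the list (-0.60, adjusted p = 0.0615, and 0.0117 with the block).

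Among RNAi genes TUT4 was called lower (113, 109 and 112 CPM against 135, 144 and 138 CPM in the nuclei, with overlapping cytoplasms, difference -0.37 ± 0.08, edgeR adjusted p = 0.0399). AGO3 had a difference of -0.52 (adjusted p = 0.0757, and 0.00191 with the block). HMGA2, a chromatin protein and let-7 target, had 558, 542 and 539 against 764, 792 and 590 CPM in the nuclei and 394, 463 and 427 against 329, 369 and 267 CPM in the cytoplasms, so neither fraction overlapped (-0.80 ± 0.18, adjusted p = 0.0456, and 0.000499 with the block). RECK, a metalloprotease inhibitor and miR-21 target, was low in all groups and called lower (-0.69). No other member of the 3 target lists was called in the edgeR fit of all 12 libraries without the block. With the block, 1 let-7, 0 miR-17 family and 2 miR-21 targets were higher (5.68% of all genes), and 2, 1 and 1 were lower (6.93%). Without wild-type culture 29, 0, 0 and 1 were higher (3.21%), and 1, 1 and 1 were lower (4.84%). DESeq2 called 2, 1 and 2 members of these lists.

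Perfect matches to the seeds were then counted in annotated 3′ UTRs of 13415 coding genes, read on the sense strand as the seed match followed by an A. The let-7 site CTACCTCA was in 4.35% of UTRs, the miR-17 site GCACTTTA in 5.43% and the miR-21 site ATAAGCTA in 2.72%. The median ratio difference from wild type was -0.03 for the genes with each of these 3 sites and 0.05 for the genes without it. In the cytoplasm, the median log2 difference between knockout and wild type was 0.05 with a let-7 site, 0.03 with a miR-17 site and -0.03 with a miR-21 site, against 0.06 without each. In the nucleus the medians were -0.0045, -0.034 and -0.089 with these sites, against 0.062, 0.065 and 0.064 without. A match is a description of the letters and not a site in use. Genes with and without a site were not matched for length. The median ratio difference of coding genes also went with mature length, at 0.11 up to 1000 bases and -0.06 above 8000 bases. The part of length in the values by site was not tested.

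Base composition went with the difference. With the culture as a block, 46 of 2201 coding genes of at most 40% GC were higher in the knockout and 373 were lower. Of 2246 genes above 60% GC, 269 were higher and 17 lower. Over all 13486 coding genes, 7.68% were higher and 7.24% lower with the block. Calls by GC and gene span were counted with the block only. The median differences of the 2 GC groups, without the block, were -0.08 and 0.16. Long genes were also lower, with 5 higher and 104 lower of 476 genes that span over 300000 bases (median -0.19). The part of GC and gene span in the differences of single genes was not tested.

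Most differences of single genes with at least 1 CPM in every group, coding or lncRNA, were falls. Of 251 such genes called, 224 were lower and 27 higher. OR51B2, an olfactory receptor gene in the beta-globin region, had 19.8, 19.9 and 14.9 CPM in knockout nuclei against 33.2, 34.7 and 24.6 CPM in wild type, and 6.17, 5.37 and 5.91 against 2.80, 2.92 and 3.89 CPM in the cytoplasms (-1.62 ± 0.23, edgeR adjusted p = 0.00732). SLC38A6, an amino acid transporter gene, had 6.56, 6.05 and 6.30 against 11.7, 13.7 and 11.3 CPM in the nuclei (-1.52 ± 0.18, adjusted p = 0.00269). TRIM66, N4BP2L2-IT2, DPH6, LINC01572, ADAM32 and CCDC7 followed at -1.29 to -1.22. For CCDC7 the difference was 0.02 when only protein-coding and lncRNA transcripts were counted.

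Among the 27 higher genes, SLC23A2, a vitamin C transporter, had the largest rise. It was read at 24.6, 24.2 and 22.7 CPM in knockout nuclei and 7.77, 6.97 and 7.34 CPM in knockout cytoplasms, against 51.1, 43.2 and 55.1 CPM and 42.7, 42.2 and 44.2 CPM in wild type. Both levels were thus lower in the knockout, the cytoplasmic one more so, and the ratio was 1.69 against 0.21 (difference 1.48 ± 0.12, edgeR adjusted p = 0.000916). CHPT1, a phosphatidylcholine synthesis enzyme, had the same form, with 11.8, 12.8 and 10.6 against 19.2, 20.2 and 21.3 CPM in the nuclei and 6.65, 8.02 and 6.23 against 20.1, 18.4 and 18.4 CPM in the cytoplasms (0.66 ± 0.15, adjusted p = 0.0497). EMC1, a subunit of the ER membrane complex, also had lower cytoplasmic levels (79.4, 70.3 and 73.7 against 145, 147 and 138 CPM, difference 0.59). FAM171A2, DAG1, SBF1 and YIPF5 were higher by 0.54, 0.52, 0.48 and 0.48.

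Of the 251 genes, 10 were called on opposite sides of the 2 genotypes, 9 from nuclear in wild type to cytoplasmic in the knockout. These sides depended on the scaling: with library totals 1 of the 10 (ZNG1A) had ratios of opposite sign and 0 were called so, and on log2(TPM + 1) the counts were 2 and 0. With library totals VPS36 had 0.08 in the knockout and 0.67 in wild type, so the lower ratio stayed and the side did not. VPS36, an ESCRT-II subunit, had 60, 55.4 and 57.5 CPM in knockout nuclei and 73.9, 79.3 and 73.0 CPM in knockout cytoplasms, against 54.5, 59.9 and 59.8 CPM and 51.2, 52.2 and 49.1 CPM in wild type (ratio -0.39 against 0.19, difference -0.58 ± 0.09, edgeR adjusted p = 0.0109). Its nuclear levels overlapped, and its cytoplasmic levels did not. CD47, the surface signal against phagocytosis, had a ratio of -0.40 against 0.38, and HUS1, a subunit of the DNA damage clamp, -0.37 against 0.28. GTDC1, OSBPL1A, FAF1 and TAF4B had differences of -0.70, -0.56, -0.43 and -0.43. ZNG1A and ZNG1B (-0.90 and -1.01) are near-identical copies, and their reads may be split between them. CPD, a carboxypeptidase of the secretory pathway, went the other way (0.19 against -0.23, difference 0.42 ± 0.09).

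Against the AGO1 knockout cells, which share no wild-type library, the ratio of the AGO2 knockout differed for 236 of 19066 genes (1.24%), 78 higher (0.409%) and 158 lower (0.829%), and for 577 (3.03%, 298 higher, 1.56%, and 279 lower, 1.46%) with the culture as a block. At an unadjusted p under 0.05 there were 2325. AGO1, the gene targeted in the other line, was the largest fall, with 149, 140 and 142 CPM in the nucleus and 206, 208 and 203 CPM in the cytoplasm of the AGO2 knockout, against 55.7, 52.4 and 53.3 CPM and 15.8, 16.9 and 15.2 CPM in the AGO1 knockout (-2.27 ± 0.07, edgeR adjusted p = 4.19e-10). FKBP10 (-2.17), MAP4K5 (-2.01), MFSD14CP (-1.58) and CLIP1 (-1.12) were the next falls, and the AGO1 knockout's cytoplasmic level was lower for each of them. UTRN, the utrophin gene, was higher (1.19 ± 0.11), with 113.6, 126.8 and 123.1 against 226, 242 and 243 CPM in the nuclei and 13.4, 11.8 and 14.8 against 62.2, 54.2 and 61.6 CPM in the cytoplasms. FGF11 (1.20) and ZNF469 (0.94) were also higher.

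The comparisons with wild type and with the AGO1 knockout use the same AGO2 knockout libraries, so their values are set side by side only. SLC23A2 differed by 1.48 from wild type and by 1.66 from the AGO1 knockout, and CHPT1 by 0.66 and 1.40. Of all genes, 0.209% were called higher and 1.61% lower against wild type, and 0.409% and 0.829% against the AGO1 knockout. The 27 ER genes had median differences of 0.34 and 0.33, with 5 and 10 called higher. The 30 membrane genes had 0.32 and 0.28, with 2 and 3 called higher, and the secreted genes 0.32 and 0.32, with 0 and 4. For the 15 nuclear lncRNAs the medians were -0.83 and -0.26, with 4 and 2 called lower, and for the 12 lncRNAs listed as cytoplasmic -0.01 and -0.27, with 0 and 4 called lower. The immediate early genes had 0.31 and 0.05, with none called in either comparison by edgeR (3 and 0 at an unadjusted p under 0.05, and 3 and 0 by DESeq2).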

How the data were processed

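Ribosome-depleted, stranded total RNA of nuclear and cytoplasmic fractions was sequenced in 3 biological replicates per group. Cytoplasm was the supernatant of a hypotonic NP-40 lysis, and nuclei were washed. The submitters' processing notes name STAR 2.5.3a, Salmon 0.11.0 and DESeq2 and the build hg38. The authors deposited estimated counts and TPM per transcript for each library. Of 200401 transcripts, 195887 matched GENCODE release 44 and 4514 did not and were left out. Estimated counts were summed per gene, rounded and fitted in edgeR 4.0.16 (R 4.3.3, TMM scaling, filterByExpr with a minimum count of 10, quasi-likelihood test, Benjamini-Hochberg adjustment over all genes tested, threshold 0.05) with 4 groups and 12 libraries per fit. The difference between genotypes was the interaction term. Shares were taken from TPM. DESeq2 1.42.0, limma 3.58.1 on log2 TPM and other scalings, filters and left-out libraries were alternatives.

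The block paired the libraries by passage number. Over 10021 genes, deviations of same-passage nuclear and cytoplasmic libraries correlated at 0.336, 0.116 and 0.489 in the AGO2 knockout. Those of different passages correlated at -0.416 to 0.0165. In wild type the same-passage values were 0.596, 0.638 and 0.798. But nuclear culture 27 with cytoplasmic 28 had 0.631, nuclear 28 with cytoplasmic 27 had 0.563, and pairs of either with culture 29 had -0.721 to -0.658. The wild-type values thus set culture 29 apart and do not pair passages 27 and 28. The value with the culture as a block is given where it changes a call or count. The members and gene lists were chosen with earlier results of these data known. Named genes were list members, or those called and, among coding and lncRNA genes, in order of size the 8 at each end of the localization ratio of each class (mean of at least 5 CPM in the higher fraction) and the 10 largest rises and falls of the ratio (at least 1 CPM in all 4 groups), not all of which are described. Genes called on opposite sides of the 2 genotypes were named too. Amino acid sequences were not analysed here. Intervals from counting error are not given, since groups of 3 libraries give the spread.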

Additional observations from a re-analysis of the deposited data

Results flagged for a closer look

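The nuclear to cytoplasmic ratio of 340 genes differed between AGO2 knockout and wild-type cells, and that of 236 genes between AGO2 and AGO1 knockout cells, by the interaction term of the edgeR fit, which tests the difference itself. Each named gene that passed is given with its difference of log2 ratios.

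The ratio was lower in the AGO2 knockout than in wild type for MALAT1 (-1.15), FTX (-0.89), JPX (-0.91), PVT1 (-0.83), OR51B2 (-1.62), SLC38A6 (-1.52), TRIM66 (-1.29), N4BP2L2-IT2 (-1.28), DPH6 (-1.26), LINC01572 (-1.25), ADAM32 (-1.25), CCDC7 (-1.22), ZNG1B (-1.01), ZNG1A (-0.90), CD47 (-0.78), GTDC1 (-0.70), HUS1 (-0.66), VPS36 (-0.58), OSBPL1A (-0.56), FAF1 (-0.43), TAF4B (-0.43), TUT4 (-0.37), HMGA2 (-0.80) and RECK (-0.69). It was higher for SLC23A2 (1.48), CHPT1 (0.66), BSG (0.62), EMC1 (0.59), FAM171A2 (0.54), DAG1 (0.52), SBF1 (0.48), CANX (0.48), YIPF5 (0.48), PDIA3 (0.47), CPD (0.42), RPN1 (0.45), DDOST (0.41), STT3A (0.40), EPCAM (0.46), ENO1 (0.42) and RNU4-1 (0.77). The culture ratios of the 2 genotypes were apart for all 340 genes, beside 36.8% of all genes tested. The 340 were called from these same libraries, so their lack of overlap follows largely from that choice and adds no support. Wild-type culture 29 stood apart, and without it 1529 genes were called in place of 340.

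Against the AGO1 knockout the ratio was lower for AGO1 (-2.27), FKBP10 (-2.17), MAP4K5 (-2.01), MFSD14CP (-1.58) and CLIP1 (-1.12). It was higher for SLC23A2 (1.66), CHPT1 (1.40), FGF11 (1.20), UTRN (1.19) and ZNF469 (0.94). AGO1 is the targeted gene of the other line.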

How the results depend on the processing

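The count of genes that differed between the fractions of the AGO2 knockout (13601) stayed within 1.5 times of that value under every alternative run, from 9792 with a mean count of at least 50 to 15294 with the block and without wild-type culture 29, and the 3 share comparisons kept their direction under every one. Wild-type culture 29 was doubted after seeing the data, and leaving it out was added then.

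The count of ratios that differed from wild type (340) was 2356 with the replicate block by culture, 1529 without wild-type culture 29, 2350 with both, 1001 with DESeq2, 1158 when all 30 libraries were fitted, 1390 with limma on log2(TPM + 1), 196 with length-scaled counts, 167 with only protein-coding and lncRNA transcripts and 120 with counts thinned to equal depth. Leaving out 1 library gave 41 to 555 genes: 44 to 57 without a nuclear AGO2 knockout library, 104 to 159 without a cytoplasmic one, 77 and 41 without nuclear wild-type culture 27 or 28, 555 without nuclear culture 29, and 226 and 196 without cytoplasmic culture 27 or 28. Fewer samples were fitted in each of these. The count against the AGO1 knockout (236) was 577 with the block, 515 with DESeq2, 415 with no filter on low counts, 146 with only protein-coding and lncRNA transcripts, 134 with length-scaled counts, 108 with all 30 libraries and 51 with limma on log2(TPM + 0.1), and 125 to 268 with 1 library left out, the lowest without nuclear AGO2 knockout culture 9 and also 130 and 150 without nuclear AGO1 knockout culture 7 or 6, 151 without cytoplasmic culture 7 of that line and 151 without nuclear AGO2 knockout culture 8. The cause was not tested.

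With only protein-coding and lncRNA transcripts the ratio of CLK1 (-0.00813) and of GAS5 (-0.127) in the knockout and the difference of CCDC7 (0.0173) changed sign. Of the other values of named genes against wild type, 827 kept their status over the alternatives, called or not called. A call was lost in 399 values and gained in 41. The block and leaving out culture 29 ended no call of a named gene. Depth differed between fractions and genotypes, and thinning also removed reads and genes tested, so the part of depth in the number of calls was not tested.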
